A study of Mus musculus with 18 samples.

Results

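The 8 genes described here, Sod2, Idh2, Glud1, Ppif, Acss1, Aldh2, Foxo3 and Oat, encode proteins that the lysine deacetylase SIRT3 is known to act on, and they were chosen by name as such targets, with earlier results of these data known. They are 8 of the 55270 genes in the deposited table, and all 8 passed the filter on low values that left 19443 genes for testing. The substantia nigra of 3-month-old mice gave 18 libraries of polyadenylated RNA, with 6 in each of 3 groups. Intact mice are labelled wild type and no virus is named for them, AAV-GFP mice overexpressed green fluorescent protein from an adeno-associated virus (AAV), and AAV-SIRT3 mice overexpressed SIRT3 from such a virus. The tissue was taken a month after the virus, and the series title places the interest in nigral dopaminergic SIRT3 and the loss of movement with age. Strain, sex, the promoter and serotype of the virus, its dose and the injected side are not given in the sources used here. Reads assigned to genes ran from 47182529 to 64728587 per library, and the 8 genes together took from 0.0910% to 0.0962% of them. All 10 markers of dopaminergic neurons, the cells that define this tissue, were above 0 in every library. Values are DESeq2-normalised read counts, called normalised reads below, and nothing about protein or acetylation was measured.

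SIRT3 sits in the mitochondrial matrix and removes acetyl groups from lysines of proteins, using NAD+. It is known for switching on metabolic and antioxidant enzymes after they are made, so its targets are defined by what happens to the protein and not to the messenger RNA. In the substantia nigra, dopamine metabolism and pacemaking activity load mitochondria with oxidants, and manganese superoxide dismutase (Sod2) is a widely studied SIRT3 target there. Among the 8, Foxo3 is the odd one, a transcription factor that moves between cytoplasm and nucleus and that is known to raise Sod2 transcription, while the products of the other 7 are mitochondrial enzymes.

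RefSeq (GRCm38.p6) gave a start-site window for 7 of the 8 genes, covering 250 bases before and 50 bases after the start, and had none for Aldh2. All 7 windows held the GC box GGGCGG on one strand or the other, which 35.7% of 32851 mouse windows of 300 bases hold. The CCAAT motif, searched on both strands, was in 4 of the 7 (Sod2, Idh2, Ppif and Oat), against 37.4% of all windows. None of the 7 held TATAAA (13.6% of all windows), the FOXO motif GTAAACA (3.65%) or TCAAGGTCA, the letters bound by estrogen-related receptors (0.423%), each searched on both strands. The windows of Sod2 and Foxo3 are printed because these genes had the most similar changes from library to library among the 28 pairs, as given later. Each is 5′ to 3′ on the strand of its gene, with GC boxes in capitals (GGGCGG, or CCGCCC where the box lies on the other strand).
Sod2, chr17:13007589-13007888, plus strand: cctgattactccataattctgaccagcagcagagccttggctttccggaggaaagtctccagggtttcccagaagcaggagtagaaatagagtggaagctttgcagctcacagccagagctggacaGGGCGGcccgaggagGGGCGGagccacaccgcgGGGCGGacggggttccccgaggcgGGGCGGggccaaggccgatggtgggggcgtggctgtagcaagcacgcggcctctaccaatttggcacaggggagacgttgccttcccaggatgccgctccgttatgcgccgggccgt
Foxo3, chr10:42276646-42276945, minus strand: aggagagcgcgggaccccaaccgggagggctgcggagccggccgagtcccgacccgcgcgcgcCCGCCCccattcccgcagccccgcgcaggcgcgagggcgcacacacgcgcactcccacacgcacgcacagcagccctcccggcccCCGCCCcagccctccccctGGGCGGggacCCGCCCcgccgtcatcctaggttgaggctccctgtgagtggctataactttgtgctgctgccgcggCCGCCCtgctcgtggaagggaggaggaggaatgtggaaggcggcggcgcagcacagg
The Sod2 window holds 4 GC boxes, all on its own strand, and is 64.3% G and C. The Foxo3 window holds 5 GC boxes and is 75.0% G and C, where the median of all windows is 52.7%. The RefSeq start of Sod2 lies inside the longer GENCODE gene span given later. A match is a description of the letters and no measure of binding.

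Sirt3 itself, the delivered gene, was read first as a check of the labels. In intact libraries it ran from 1733 to 1920 normalised reads with a median of 1823. The AAV-GFP libraries ran from 1684 to 1936 (median 1756) and the AAV-SIRT3 libraries from 1801 to 2041 (median 1953). The AAV-SIRT3 group was the highest, yet its range overlapped both other groups. Its mean of 1937 ± 79.4 (SD, n = 6) was 0.13 above AAV-GFP on the log2 scale (SE 0.042), an increase of 9.15% that was higher in 33 of 36 pairs of libraries. The exact two-sided permutation test gave p = 0.0152 (adjusted p = 0.0455 over the 3 comparisons), where the smallest p it allows is 0.00216, but across all genes limma gave an adjusted p of 0.183. Leaving out AAV-GFP replicate 2 raised the difference to 0.15 with an adjusted p of 0.0390 by limma. Against intact the exact permutation p was 0.0325 (adjusted p = 0.0487), and limma gave a difference of 0.087 with an adjusted p of 0.148. Sirt3 lies at chr7:140863666-140882309 on the minus strand (GENCODE M21, GRCm38) and shares 418 exonic bases with Ric8a and 342 with Psmd13, both on the other strand. The strand setting of the counting and the sequence carried by the virus are not given in the sources used here, so reads of the neighbours and of the transgene cannot be told apart from those of the mouse gene.

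None of the 8 target genes passed the threshold in any of the 3 comparisons (limma, Benjamini-Hochberg adjusted p under 0.05 over all 19443 genes). In AAV-SIRT3 against AAV-GFP, where 0.113% of all genes were called (0.036% higher and 0.0771% lower), 0 of 8 were called and 0 had an unadjusted p under 0.05 (15.2% of all genes did), and edgeR and DESeq2 on the recovered reads called 0 each. In AAV-GFP against intact, where 1.84% of all genes were called (0.823% higher and 1.02% lower), the count was again 0 by limma, with 0 at an unadjusted p under 0.05 (19.1% of all genes), 0 by edgeR and 0 by DESeq2. AAV-SIRT3 against intact called 21.7% of all genes (11.3% higher and 10.3% lower) and 0 of the 8, with 1 gene (Glud1) at an unadjusted p under 0.05 (34.9% of all genes), 0 called by edgeR and 1, again Glud1, by DESeq2. DESeq2 called 4616 of 19443 genes in that comparison. The 3 comparisons share libraries, so they are not independent of each other.

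The intervals around these differences were narrow. Over the 8 genes, the 95% intervals of AAV-SIRT3 against AAV-GFP lay between -10.1% and 18.02%. Those of AAV-GFP against intact lay between -12.9% and 12.1%, and those of AAV-SIRT3 against intact between -6.74% and 15.5%. These bounds are the lowest and highest over the 8 genes, so a change beyond them lies outside the interval of every gene. The interval of a single gene can be narrower, as for Glud1 in AAV-SIRT3 against intact (1.09% to 10.9%). The median difference of the 8 genes was 0.039, 0.031 and 0.037 on the log2 scale in the 3 comparisons, beside medians of -0.0041, 0.00074 and -0.0049 over all genes tested. RNA of whole tissue was read, so less of a messenger per cell and fewer cells that make it cannot be told apart.

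**Figure D1:**
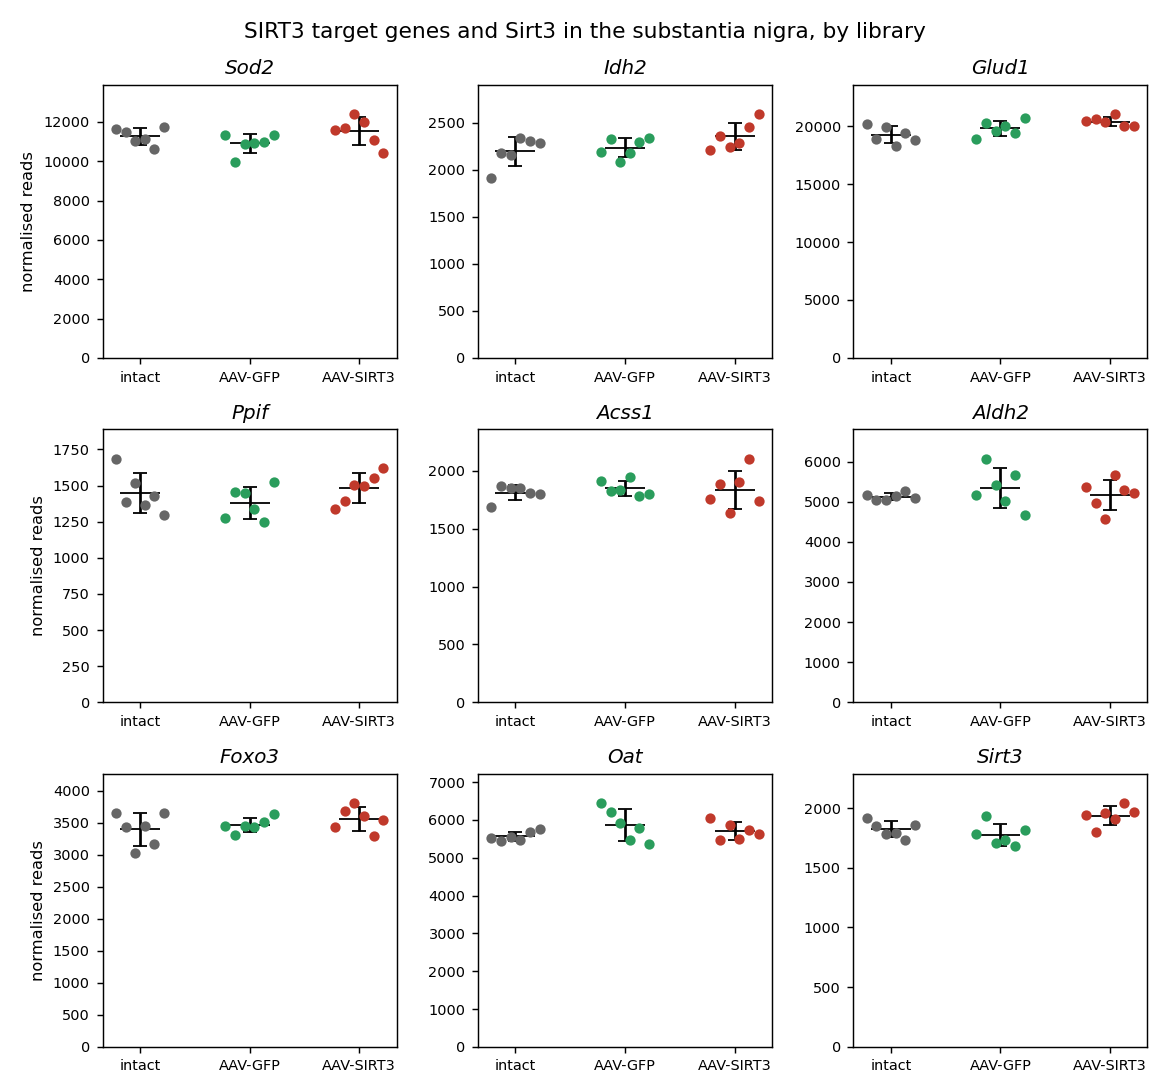
Normalised reads (vertical axes, from 0) of the 8 SIRT3 target genes and of Sirt3 in each of the 18 libraries. Points are libraries, horizontal lines are group means and bars are SD (n = 6), and in each panel the ranges of the 3 groups overlap.

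The antioxidant branch was represented by Sod2, which turns superoxide into hydrogen peroxide in the matrix (chr17:13006846-13040063, plus strand). Intact libraries ran from 10629 to 11737 normalised reads (median 11314), AAV-GFP libraries from 9976 to 11343 (median 10962) and AAV-SIRT3 libraries from 10426 to 12397 (median 11641). The highest library was an AAV-SIRT3 one and the lowest an AAV-GFP one, and the 3 ranges overlapped broadly. Means were 11277 ± 424, 10906 ± 501 and 11534 ± 699 (SD, n = 6 each). AAV-SIRT3 stood 0.080 above AAV-GFP on the log2 scale (SE 0.042, limma adjusted p = 0.365) and was higher in 29 of 36 pairs. Against intact the difference was 0.031 (adjusted p = 0.637), and the interval ran from -3.80% to 8.53%.

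Idh2 makes mitochondrial NADPH, the reducing power behind the peroxide-removing enzymes that act after Sod2 (chr7:80094846-80115392, minus strand). Its libraries ran from 1918 to 2343 normalised reads in intact mice (median 2235), from 2088 to 2343 in AAV-GFP (median 2243) and from 2216 to 2594 in AAV-SIRT3 (median 2324). Intact replicate 1 was the lowest and AAV-SIRT3 replicate 6 the highest. The mean was 2361 ± 144 in AAV-SIRT3 against 2200 ± 156 in intact libraries (SD, n = 6 each), which was the widest difference of the 8 in that comparison, 0.10 on the log2 scale (SE 0.051, limma adjusted p = 0.153). Against AAV-GFP (2238 ± 102) it was 0.076 (adjusted p = 0.490). With markers of thalamic neurons, given later, as a covariate, Idh2 gave 0.033 in AAV-SIRT3 against intact, no longer the widest of the 8.

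Glud1, the glutamate dehydrogenase that links glutamate to the citric acid cycle, was the most abundant of the 8 (chr14:34310727-34345265, plus strand). Intact libraries ran from 18304 to 20224 normalised reads (median 19174), AAV-GFP from 18922 to 20739 (median 19781) and AAV-SIRT3 from 19995 to 21035 (median 20391). The AAV-SIRT3 libraries lay close together near the top, and 1 intact and 2 AAV-GFP libraries reached into their range. Means were 19274 ± 728, 19818 ± 657 and 20401 ± 388 (SD, n = 6 each). AAV-SIRT3 was above intact by 0.083 on the log2 scale (SE 0.032), an increase of 5.89% (95% interval 1.09% to 10.9%) in 34 of 36 pairs, and its adjusted p of 0.0712 by limma was the lowest of the 8 genes in any comparison. Without intact replicate 1 the difference was 0.097 with an adjusted p of 0.0405 by limma, and DESeq2 gave 0.081 with an adjusted p of 0.0488. These were the only 2 of 31 alternatives that called Glud1, and quantile normalisation gave the smallest difference, 0.046. AAV-GFP lay between the other groups, and AAV-SIRT3 against AAV-GFP gave 0.042 (adjusted p = 0.556).

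Oat, ornithine aminotransferase, joins ornithine to glutamate and proline and so feeds the same pool (chr7:132557478-132576398, minus strand). It ran from 5450 to 5751 normalised reads in intact libraries (median 5536), from 5373 to 6440 in AAV-GFP (median 5855) and from 5470 to 6049 in AAV-SIRT3 (median 5674). Intact libraries were tight and low. AAV-GFP libraries spread more widely and mostly above them, with the lowest (5373) just below. The AAV-GFP mean of 5866 ± 412 against 5570 ± 121 in intact (SD, n = 6 each) gave 0.072 on the log2 scale (SE 0.041, limma adjusted p = 0.358), and AAV-SIRT3 was 0.034 above intact (adjusted p = 0.599).

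Acss1 and Aldh2 handle small carbon compounds. Acss1, which activates acetate to acetyl-CoA in mitochondria (chr2:150618105-150668500, minus strand), ran from 1691 to 1866 normalised reads in intact libraries (median 1828), from 1780 to 1942 in AAV-GFP (median 1827) and from 1634 to 2104 in AAV-SIRT3 (median 1821). The 3 medians lay within a few reads of each other, while AAV-SIRT3 held both the highest and the lowest library. Its difference from AAV-GFP was -0.014 on the log2 scale (SE 0.050, limma adjusted p = 0.925), and the sign turned when AAV-GFP replicate 4 or AAV-SIRT3 replicate 3 or 6 was left out (range -0.054 to 0.019). Aldh2 clears aldehydes, among them the toxic aldehyde that monoamine oxidase makes from dopamine (chr5:121566027-121593824, minus strand). It ran from 5038 to 5257 normalised reads in intact libraries (median 5110), from 4663 to 6073 in AAV-GFP (median 5289) and from 4564 to 5657 in AAV-SIRT3 (median 5254). The coefficient of variation (CV, SD over mean) was 1.62% in intact libraries but 9.37% in AAV-GFP and 7.23% in AAV-SIRT3, while AAV-GFP was 0.053 above intact on the log2 scale (limma adjusted p = 0.640) and AAV-SIRT3 0.012 (adjusted p = 0.903). The difference in spread was not tested.

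Ppif encodes cyclophilin D, which lowers the threshold for opening of the mitochondrial permeability transition pore (chr14:25694154-25700468, plus strand). It had the lowest mean of the 8 and the widest relative spread among intact libraries, from 1296 to 1686 normalised reads (median 1407, CV 9.57%). AAV-GFP libraries ran from 1249 to 1526 (median 1392) and AAV-SIRT3 libraries from 1340 to 1623 (median 1501). The highest value belonged to an intact library and the lowest to an AAV-GFP library. AAV-SIRT3 against AAV-GFP gave the widest difference of the 8 in that comparison, 0.10 on the log2 scale (SE 0.065, 95% interval -2.05% to 18.02%, limma adjusted p = 0.453), and AAV-SIRT3 against intact gave 0.040 (adjusted p = 0.702). The latter ran from 0.0092 to 0.085 with 1 library left out and was 0.17 with markers of thalamic neurons, given later, as a covariate (adjusted p = 0.216).

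Foxo3, the transcription factor (chr10:42181841-42276755, minus strand), ran from 3029 to 3658 normalised reads in intact libraries (median 3440), from 3313 to 3641 in AAV-GFP (median 3448) and from 3288 to 3807 in AAV-SIRT3 (median 3569). Intact libraries spread most widely and held the lowest value, an AAV-SIRT3 library held the highest, and the 3 ranges overlapped widely. Means were 3396 ± 254, 3467 ± 107 and 3558 ± 184 (SD, n = 6 each). AAV-SIRT3 was 0.037 above AAV-GFP (SE 0.047, limma adjusted p = 0.754) and 0.069 above intact (adjusted p = 0.309). Sod2 and Foxo3 have the longest exon models of the 8, 10008 and 7571 bases, and the values of longer genes differed between libraries. This was read from the rank correlation, across genes, of a library's values, relative to all libraries, with exon length. It ran from 0.0619 to 0.166 in intact, from -0.300 to 0.105 in AAV-GFP and from -0.286 to -0.0227 in AAV-SIRT3 libraries. With that trend removed, AAV-SIRT3 against intact gave 0.12 for Sod2 (adjusted p = 0.0101) and 0.13 for Foxo3 (adjusted p = 0.0481) by limma. In that fit 2 of the 8 genes passed, beside 3198 of 18824 genes (1806 higher and 1392 lower).

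**Figure D2:**
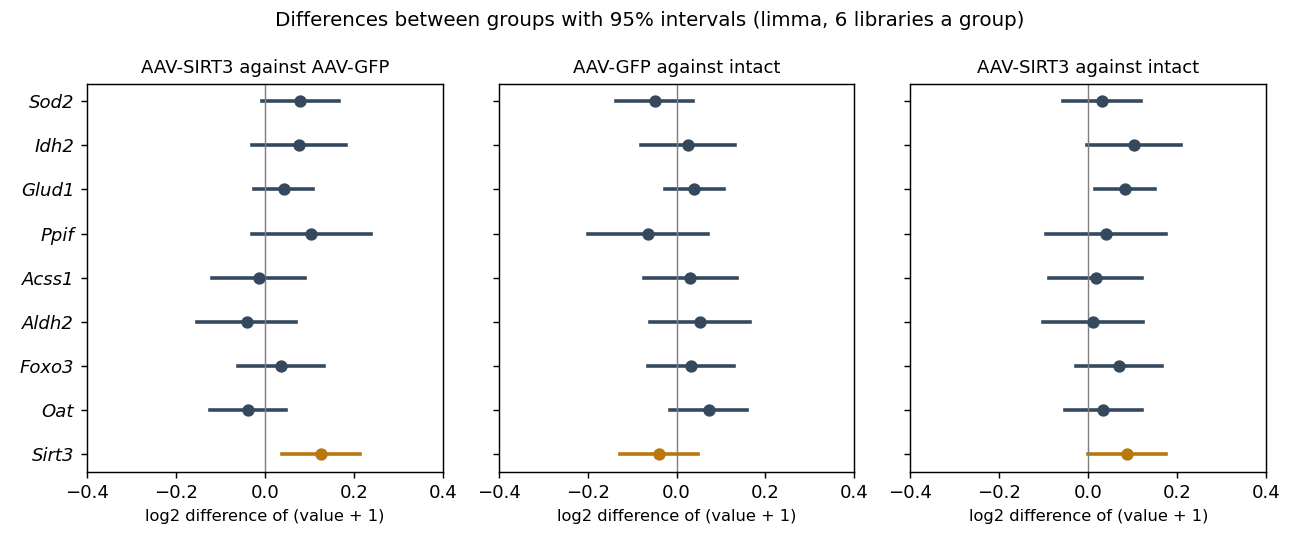
Differences between groups on the log2(value + 1) scale (horizontal axes) for the 8 SIRT3 target genes and Sirt3, with limma's 95% intervals (6 libraries a group). Intervals include 0 except Glud1 in AAV-SIRT3 against intact and Sirt3 in AAV-SIRT3 against AAV-GFP, and these are intervals of single genes, not adjusted over all genes.

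Levels per kilobase of exon were compared over the 18 libraries. Glud1 led with 4711 ± 176 normalised reads per kilobase (SD, n = 18), followed by Oat with 2421 ± 124. Sod2 (1123 ± 58.3), Aldh2 (1017 ± 69.0) and Idh2 (876 ± 56.4) came next, and the ranges of neighbours among these overlapped, though Sod2 exceeded Aldh2 in 16 of 18 libraries and Aldh2 exceeded Idh2 in 18 of 18. Foxo3 (459 ± 25.4) and Acss1 (444 ± 25.1) did not differ beyond their spread, with Foxo3 above in 12 of 18. Ppif was the lowest with 285 ± 23.7. On this scale Glud1 and Oat stood highest and Ppif lowest. Without division by length, Sod2 had more normalised reads than Oat (means of 11277 and 5570 in intact libraries), and Ppif was still the lowest (1447). Exon length is the union of all annotated exons of GENCODE M21, which lowers the level of genes with long alternative exons such as Sod2. Within the intact, AAV-GFP and AAV-SIRT3 groups, the CV of the 8 genes ran from 1.62% to 9.57%, and counting error alone would give 0.699% to 2.67%. The median CV of genes with a mean of at least 50 in the same order of groups was 7.20%, 8.07% and 7.60%.

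Among the 28 pairs of these genes, Sod2 and Foxo3 had the highest correlation among libraries of the same group. After each group's mean was removed, Pearson's r over the 18 libraries was 0.66 (permutation p = 0.00245, adjusted p = 0.0686 over 28 pairs) and Spearman's rho 0.72 (permutation p = 0.0019, adjusted p = 0.0532). Both missed the threshold after adjustment. Without the 2 libraries farthest from the median of Sod2, r was 0.81. With the trend on exon length removed, an alternative added after the data were seen, r was 0.62 (adjusted p = 0.196) and rho 0.61 (adjusted p = 0.388). With TMM factors r was 0.66 (adjusted p = 0.107) and rho 0.75 (adjusted p = 0.0288). Glud1 and Ppif had the next highest r, 0.61 (rho 0.60, permutation p = 0.0170, adjusted p = 0.204), which became 0.49 without the 2 farthest libraries. The most opposite pair was Sod2 and Idh2, with r = -0.54 (rho -0.50, permutation p = 0.0255, adjusted p = 0.204), -0.36 without the 2 farthest libraries and -0.35 with the length trend removed. Over all 28 pairs r ran from -0.54 to 0.66, 7 were above 0, 5 had an unadjusted p under 0.05, and 0 passed after adjustment.

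**Figure D3:**
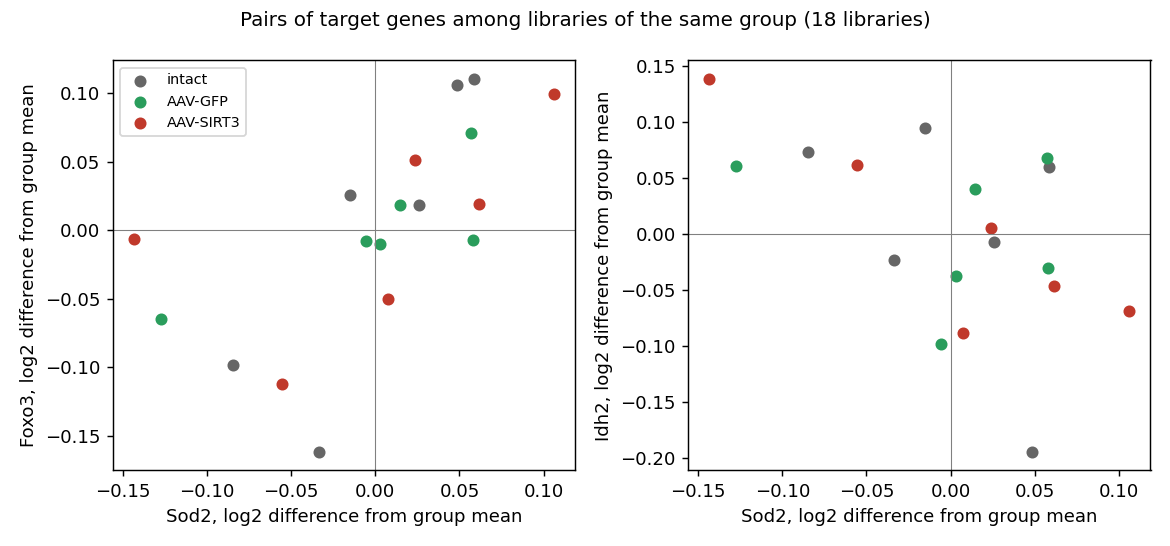
Log2 difference of each library from its group's mean, Foxo3 (left) and Idh2 (right) on the vertical axes against Sod2 on the horizontal axes, for 18 libraries coloured by group. On the left the points rise from lower left to upper right (r = 0.66), and on the right they fall (r = -0.54) with wide scatter.

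Related genes were counted in the same fit, from lists of known SIRT3 substrates and of the pathways around the 8 genes. In AAV-SIRT3 against AAV-GFP and in AAV-GFP against intact, 0 genes of any of these lists passed by limma, beside 0.113% and 1.84% of all genes. In the first comparison, 10 of 29 other substrates, 6 of 25 family genes, 4 of 18 FOXO3-controlled genes, 2 of 16 of glutamate and proline, 5 of 11 of NADPH and peroxide and 5 of 12 of the permeability transition had an unadjusted p under 0.05, beside 15.2% of all genes. In the second they were 4, 8, 4, 1, 4 and 3, beside 19.1% of all genes. On the recovered reads edgeR called 0 of them in both, and DESeq2 called 1 family gene in the first and 2 family genes, 1 FOXO3-controlled gene and 1 of the NADPH list in the second. Without AAV-GFP replicate 2, limma called 1, 3, 2, 0, 4 and 2 genes of these lists in AAV-SIRT3 against AAV-GFP, in a fit that called 861 of 19443 genes (458 higher and 403 lower) in place of 22. In AAV-SIRT3 against intact, 10 of 29 other SIRT3 substrate genes rose (34.5%), where 11.3% of all genes rose. The list's median was 0.077 on the log2 scale, beside 0.037 for the 8 genes and -0.0049 over all genes tested. Pdp1, a phosphatase that activates pyruvate dehydrogenase, rose by 0.52 (SE 0.14, adjusted p = 0.0113), and Pycr1, which makes proline, by 0.45 (adjusted p = 0.0359).

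Markers of neighbouring thalamic neurons moved with this comparison. Their sum over 6 genes ran from 40344 to 69486 normalised reads in intact libraries (median 49623), from 60101 to 69798 in AAV-GFP (median 67473) and from 61305 to 74791 in AAV-SIRT3 (median 68131), 5 of the 6 were called higher in AAV-SIRT3 against intact, and none was at 0. With the mean log2 value of these markers as a covariate, 631 of 19443 genes were called in place of 4214 (349 higher and 282 lower), and 1 other substrate rose. The list's median was 0.077, as without the covariate. Of the 9 rises no longer called, Pdp1 gave -0.024 and Pycr1 -0.0059 (adjusted p = 0.893 and 0.988), and the other 7 gave 0.10 to 0.20. None of the 8 target genes passed with that covariate. Their differences in AAV-SIRT3 against intact were then -0.023 (Acss1), 0.00069 (Sod2), 0.021 (Foxo3), 0.033 (Idh2), 0.047 (Oat), 0.059 (Aldh2), 0.12 (Glud1) and 0.17 (Ppif). With the length trend removed, 3 other substrates rose (1806 of 18824 genes), and without intact replicate 3 the number was 6 (1741 of 19443 genes).

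Markers of other cell types also passed the threshold. In AAV-SIRT3 against intact, where 21.7% of all genes passed, all 3 anterior pituitary markers were lower (median sum 2634 normalised reads in intact and 483 in AAV-SIRT3 libraries), as were 2 of 3 choroid plexus markers (889 and 466). Of 7 microglial markers 3 were higher (14532 and 15179), and of 5 endothelial markers 2 were lower and 1 higher (8412 and 7521). The choroid plexus sum varied widely, from 525 to 45143 in intact, 262 to 39756 in AAV-GFP and 250 to 1335 in AAV-SIRT3 libraries. Reactive astrocyte markers had their highest sum in AAV-GFP (median 30608, against 21250 in intact and 20793 in AAV-SIRT3). Of these 5 markers, 3 were higher in AAV-GFP against intact (1.84% of all genes called), 2 were lower in AAV-SIRT3 against AAV-GFP (0.113%) and 1 was higher in AAV-SIRT3 against intact. Of 10 dopaminergic markers 2 were lower in AAV-GFP against intact (45771 against 55821). All 3 anterior pituitary markers were lower there as well, and 1 of the 6 thalamic markers was higher. The GABAergic and oligodendrocyte lists each had 1 marker higher in AAV-SIRT3 against intact, and 1 of 7 microglial markers was higher in AAV-GFP against intact and 1 lower in AAV-SIRT3 against AAV-GFP. The part of these markers in the results was not tested.

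Genes of the same families as the 8 were counted next. In AAV-SIRT3 against intact, 4 of 25 rose (16.0%) and 1 fell, where 11.3% of all genes rose and 10.3% fell, and their median was 0.074 on the log2 scale. Sod1, the cytosolic superoxide dismutase, rose by 0.22 (SE 0.045, adjusted p = 0.00208), where Sod2 gave 0.031. Sod1 had 11054 ± 370 normalised reads in intact and 12908 ± 854 in AAV-SIRT3 mice (SD, n = 6 each), in ranges that did not meet. With the length trend removed, limma gave 0.20 for Sod1 (adjusted p = 0.00312) and 0.12 for Sod2 (adjusted p = 0.0101). Ppia, the cytosolic cyclophilin A, rose by 0.28 (adjusted p = 0.000697) where Ppif gave 0.040 (0.26 and 0.17 with the thalamic covariate), and the related Ppie rose by 0.23 (adjusted p = 0.0464), a call that was lost in 14 of 18 fits with 1 library left out. Idh3g, a subunit of the NAD-dependent isocitrate dehydrogenase, rose by 0.15 (adjusted p = 0.00740). Acss3, an acyl-CoA synthetase for propionate, fell by 0.35 (adjusted p = 0.0293), and 5 of 18 such fits lost that call. With the thalamic markers as covariate 2 of the 25 rose (Sod1 and Ppia) and 0 fell, where 349 of 19443 genes rose. The genes no longer called gave 0.15 (Idh3g), 0.20 (Ppie) and -0.27 (Acss3). The ratio of Sod2 to Sod1 reads in the intact, AAV-GFP and AAV-SIRT3 groups was 1.02 ± 0.0518, 0.926 ± 0.0884 and 0.900 ± 0.110 (SD, n = 6 each), and that of Ppif to Ppia was 0.0429 ± 0.00472, 0.0368 ± 0.00231 and 0.0362 ± 0.00218. These ratios were not corrected for the length trend and were not tested.

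Of 18 genes known to be controlled by FOXO3, Sod2 among them, 2 rose (11.1%) and 3 fell in AAV-SIRT3 against intact, and their median was 0.050. Of all genes 11.3% rose and 10.3% fell, and the share of the list that rose is near that of all genes. Pmaip1 (Noxa) and Bcl2l11 (Bim) both encode proteins that promote apoptosis, and they went opposite ways, Pmaip1 by 0.42 (adjusted p = 0.0411) and Bcl2l11 by -0.39 (adjusted p = 0.00543). Cited2, a transcriptional coregulator, rose by 0.27 (adjusted p = 0.0111), and Fbxo32, a ubiquitin ligase subunit of muscle atrophy, fell by 0.24 (adjusted p = 0.0114). Pmaip1 missed the threshold in 8 of 18 fits with 1 library left out, and with the thalamic markers as covariate only Bcl2l11 of the list passed. The list's median was then 0.047, and Fbxo32 gave -0.21, Cited2 0.15 and Pmaip1 0.20 (adjusted p = 0.167, 0.352 and 0.550).

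In the same comparison, 4 of 11 genes of NADPH supply and peroxide removal, the steps around Idh2 and Sod2, rose (36.4%, beside 11.3% of all genes) and 1 fell, with a median of 0.12. The glutathione peroxidases Gpx4 and Gpx1, which reduce lipid peroxides and hydrogen peroxide, rose by 0.32 (SE 0.052, adjusted p = 0.000692) and 0.31 (SE 0.049, adjusted p = 0.000617), and for either gene each AAV-SIRT3 library exceeded each intact one. Me3, a mitochondrial malic enzyme that makes NADPH, fell by 0.21 (adjusted p = 0.0216), and missed the threshold without intact replicate 1 or 3. The values of AAV-GFP replicate 2 fell most steeply with exon length (-0.300), and without that library 4 of the 11 rose in AAV-SIRT3 against AAV-GFP, as did 458 of 19443 genes. With the thalamic covariate 3 of the 11 rose and 0 fell, and Me3 gave -0.088.

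Around Ppif, 9 of 12 genes tied to the permeability transition rose in AAV-SIRT3 against intact (75.0%, beside 11.3% of all genes) and 0 fell, with a median of 0.15. The largest 2 rises were those of the ATP synthase subunits Atp5o, by 0.33 (SE 0.064, adjusted p = 0.00165), and Atp5g1, by 0.21 (adjusted p = 0.0115). With the thalamic covariate 1 of the 12 rose (Atp5o), with a median of 0.15. With the length trend removed 6 of 11 rose, beside 1806 of 18824 genes, and Atp5o had no length. With 1 library left out 6 to 10 of the 12 rose, beside 1693 to 2381 of 19443 genes. Around Glud1 and Oat, 2 of 16 genes of glutamate and proline metabolism rose (12.5%) and 0 fell, a share near the 11.3% of all genes. These were Pycr1 and Glul, glutamine synthetase, which rose by 0.18 (adjusted p = 0.0167), being 93270 ± 6272 normalised reads in intact and 105396 ± 5238 in AAV-SIRT3 mice (SD, n = 6 each). With the length trend removed the adjusted p was 0.0516 for Glul and 0.0531 for Pycr1, and 6 of 18 fits with 1 library left out lost the call of Pycr1. Some genes stand in more than 1 list, and the lists were chosen with results of these data known, so their counts are a description.

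**Figure D4:**
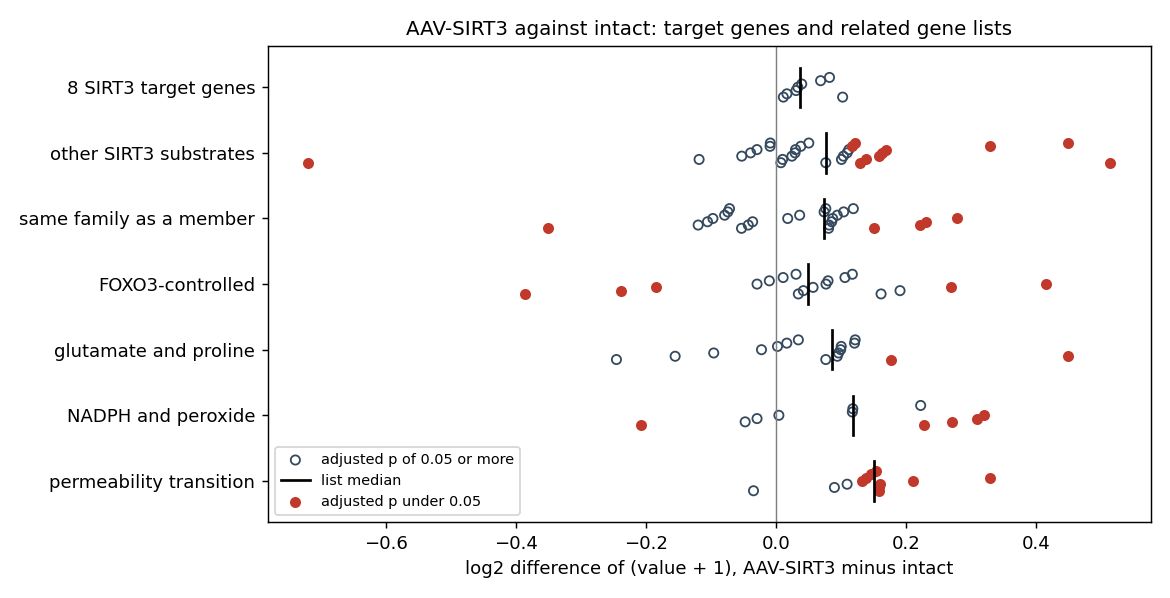
AAV-SIRT3 minus intact on the log2(value + 1) scale (horizontal axis) for the 8 SIRT3 target genes (top) and 6 related lists. Each circle is a gene, filled where limma's adjusted p is under 0.05, and vertical bars are list medians. The 8 target genes lie between 0.012 and 0.10 with none filled, and the permeability transition list has 9 of 12 filled.

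The genes with the closest profiles over the 18 libraries, by root mean square difference of standardised log2 values among 15245 genes, differed for each of the 8. A lower value is a closer match, and the median over all genes was 1.35 to 1.39. Sod2 was closest to Bpnt2 (0.420 SD), Bri3bp (0.455) and Rbms3 (0.501), and Foxo3 to Sh3bgrl2 (0.438), 6430548M08Rik (0.499) and Rasgef1b (0.588). Idh2 was closest to Ccnl2 (0.468), Gm48408 (0.494) and Usf1 (0.499), and Glud1 to Ppp2r2d (0.511), Rac1 (0.513) and Rab35 (0.534). For Ppif these were Spryd3 (0.529), N4bp3 (0.579) and Podxl2 (0.589), and for Oat Laptm4a (0.578), Fbln5 (0.654) and Capg (0.682). Aldh2 came with Tcn2 (0.634), Hmgn5 (0.641) and Icam1 (0.681), and Acss1 with Adhfe1 (0.647), Gm15751 (0.702) and Ppp1r32 (0.719). None of the 8 was among the 3 closest of another. These profiles hold the differences between groups and the scaling of each library as well as differences among mice.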

How the data were processed

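Per the labels' protocols, RNA with an integrity number over 7 was made into TruSeq stranded poly-A libraries and read in pairs of 100 bp. The deposited table holds a signal per gene that, by its name, is HTSeq read counts normalised by DESeq2. Per the submitters' processing notes, HISAT2 2.1.0, DESeq2 1.34.0 and the build mm10 were used, and the annotation and HTSeq settings are not given in the sources used here. The smallest value above 0 in each deposited column was taken as 1 read, and 1 over it as the size factor. Multiplying each column by this inferred factor gave whole reads for 100% of values above 0 (within 0.001 reads). That is a weaker proof in intact replicate 4 and AAV-SIRT3 replicate 4, whose factors are 1.00 and 1.01. These recovered reads gave the depth and the count tests.

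Groups and replicate numbers come from the titles, and 0 columns were left unmatched. In R 4.3.3, limma 3.58.1 (trend) was fitted on log2(value + 1) to 1 model of 3 groups, for genes reaching 10 normalised reads in 6 or more libraries. It had 15 residual degrees of freedom, and p-values were adjusted by Benjamini-Hochberg with a threshold of 0.05. Fold changes on that scale understate low genes. Each comparison was refitted under 31 alternatives, 18 of them leaving out 1 library, others with edgeR 4.0.16 and DESeq2 1.42.0. Pairs of genes were tested by permuting libraries within groups (100000 resamples, two-sided). The procedure was tested on simulated data. Titles number the libraries within each group as replicates, and each library was taken as a separate mouse.

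The 8 genes and all lists were chosen with earlier results of these data known. All 8 genes and Sirt3 are named whatever their values. Of each list, genes past the threshold are named, or where more than 4 pass, the 2 largest rises and 2 largest falls. Genes of the same families may all be named. A result for 1 gene of a list is not reported here. Positions and exon lengths come from GENCODE M21 (GRCm38). Reads have no molecular identifiers, so counting error is a lower limit. Overlaps on the other strand of Ppif, Acss1 and Aldh2 involve genes with a mean under 10 normalised reads.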

Additional observations from a re-analysis of the deposited data

Results flagged for a closer look

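Sod2 in AAV-GFP replicate 2, the lowest library of its group, had 9976 normalised reads, and the next lowest AAV-GFP library had 10855. The gap is 0.643 of the group's range, above Dixon's 95% critical value for 6 samples. It was 1 of 27 groups of values tested (8 target genes and Sirt3 in 3 groups), where chance flags about 1 in 20 and so 1.35 here. Without this library, 0 of the 8 target genes passed in AAV-SIRT3 against AAV-GFP, as with it.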

How the results depend on the processing

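Of 744 values of the 8 target genes under the alternatives, 16 changed sign and 4 changed side of the threshold. In AAV-SIRT3 against intact the number of the 8 past the threshold, 0 by limma, was 1 with DESeq2 (Glud1). It was 2 with the length trend removed (Sod2, Foxo3), and 0 to 1 with 1 library left out (1 without intact replicate 1). Over all genes DESeq2 called 4616 of 19443, and 3198 of 18824 were called with the length trend removed. Without intact replicate 1 the count was 3877 of 19443. In AAV-SIRT3 against intact 11 other SIRT3 substrates passed in either direction, beside 4214 of 19443 genes. They were 7 when all genes above 0 were tested, where 3170 of 38540 genes passed. With the length trend removed they were 4, where 28 of the 29 had a length. With the thalamic markers as covariate they were 2, and 631 of 19443 genes passed. With 1 library left out they were 7 to 15, and 3279 to 4633 of 19443 genes passed. The other substrates past the threshold were 0 to 1 in AAV-SIRT3 against AAV-GFP (1, Atp5o, without AAV-GFP replicate 2, where 861 genes passed). In AAV-GFP against intact they were 0 to 1 (1, Pdp1, without intact replicate 2 or 6, where 462 and 540 genes passed). Sirt3 in AAV-GFP against intact was 0.013 with the astrocyte markers as covariate, from -0.040, and in AAV-SIRT3 against intact 0.12 with an adjusted p of 0.0410. In AAV-SIRT3 against AAV-GFP it ran from 0.11 to 0.15 with 1 library left out. The causes were not tested.

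Signs turned in differences near 0. With the thalamic covariate, AAV-GFP against intact gave -0.0048 for Acss1, -0.010 for Foxo3, -0.035 for Idh2 and 0.050 for Ppif, and AAV-SIRT3 against intact gave -0.023 for Acss1. With the length trend removed, Idh2 gave -0.0070 and Sod2 0.0017 in AAV-GFP against intact, and Oat -0.038 in AAV-SIRT3 against intact. Quantile normalisation gave -0.0060 for Aldh2 in AAV-SIRT3 against intact. With 1 library left out, Acss1 ran from -0.054 to 0.019 in AAV-SIRT3 against AAV-GFP and from -0.023 to 0.050 against intact, Aldh2 from -0.015 to 0.047 in AAV-SIRT3 against intact, and Idh2 from -0.012 to 0.046 in AAV-GFP against intact. Same-numbered libraries share only a number: of the correlations in 18 same-numbered pairs, from -0.095 to 0.18, 1 was over 0.1, and 1 was the best of its library. With the replicate block, 0 of the 8 genes passed in each comparison, and 0, 0 and 11 other substrates.

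Over all genes, AAV-SIRT3 against AAV-GFP called 22, from 5 without AAV-SIRT3 replicate 5 to 861 without AAV-GFP replicate 2 (304 by DESeq2). AAV-GFP against intact called 358, from 31 with the thalamic covariate to 1000 by DESeq2, and AAV-SIRT3 against intact called 4214, from 631 with that covariate to 4818 with the astrocyte one.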

Other observations

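Nnt, the proton-driven transhydrogenase that makes mitochondrial NADPH beside Idh2, was almost absent. In the intact, AAV-GFP and AAV-SIRT3 groups it had 17.3 ± 7.10, 17.0 ± 8.21 and 16.1 ± 4.99 normalised reads (SD, n = 6 each), where Idh2 had 2200, 2238 and 2361. The C57BL/6J strain is known to carry a deletion in Nnt, but the labels name no strain, and the part of strain in this level was not tested.

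The ratio of the mitochondrial to the cytosolic NADP-dependent isocitrate dehydrogenase, Idh2 to Idh1 reads, in the same order of groups was 0.658 ± 0.0827, 0.719 ± 0.0474 and 0.744 ± 0.0642 (SD, n = 6 each). The ratio of Acss1 to its cytosolic counterpart Acss2 was 0.492 ± 0.0412, 0.529 ± 0.0167 and 0.492 ± 0.0542. In both ratios the ranges of the 3 groups overlapped, and the ratios were not tested.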
